A study of Mus musculus with 8 samples.

Results

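The mouse mitochondrial chromosome carries 37 genes, and all 37 were present among the 55450 genes of the deposited count files. They were taken as every gene that the annotation (GENCODE, build GRCm38) places on that chromosome: 13 mRNAs, 2 rRNAs and 22 tRNAs, of which 28 lie on the plus strand and 9 on the minus strand. Their counts were described in 8 RNA-seq libraries of primary hepatocytes of C57BL/6 mice at post-natal week 8. WT hepatocytes came from Slc39a8(F/F) mice, whose floxed Slc39a8 alleles are intact, and LSKO hepatocytes from Alb-cre(+/+);Slc39a8(F/F) mice, in which Cre under the albumin promoter removes Slc39a8 in hepatocytes. WT and LSKO were each sequenced untreated in 2 libraries. LSKO hepatocytes were also given MnCl2, FeCl2, sodium selenite or ZnCl2 at 2 µM for 24 h (overnight in the series text), with 1 library each. All cultures were kept in serum-free DMEM/F-12 with dexamethasone. Nothing in the labels says whether replicates came from separate mice. The p-values below therefore rest on differences between replicates of untreated cells, which may be technical. A treatment with 1 library adds nothing to that estimate, so p-values and standard errors of treatment comparisons hold no variation between treated cultures.

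Mitochondrial DNA is transcribed by a dedicated polymerase (Polrmt with the factors Tfam and Tfb2m) into long precursors of both strands, which are cut at the tRNAs to release the mRNAs and rRNAs. The mRNAs encode core subunits of the respiratory chain and of the ATP synthase: mt-Nd1 to mt-Nd6 and mt-Nd4l belong to complex I, mt-Cytb to complex III, mt-Co1 to mt-Co3 to complex IV, and mt-Atp6 and mt-Atp8 to complex V. The other subunits of these complexes come from nuclear genes. The rRNAs mt-Rnr1 and mt-Rnr2 form the small and the large subunit of the mitochondrial ribosome. Hepatocytes are rich in mitochondria. Slc39a8 encodes ZIP8, a transporter of manganese, iron, zinc and selenite.

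Neighbouring mitochondrial genes abut or overlap, so that a sequencing read can touch more than 1 of them. The 2 junctions below matter for the results. mt-Co1 (chromosome M, bases 5328 to 6872, plus strand) shares its last 3 bases with mt-Ts1, a serine tRNA of the minus strand (bases 6870 to 6938); the shared bases are in capitals, and each sequence is written 5′ to 3′ on its own strand, as in the GENCODE transcripts.
mt-Co1, last bases: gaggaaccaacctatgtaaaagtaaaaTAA
mt-Ts1: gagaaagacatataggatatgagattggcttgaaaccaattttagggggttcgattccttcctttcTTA
mt-Atp8 (bases 7766 to 7969) and mt-Atp6 (bases 7927 to 8607), both of the plus strand, share 43 bases, shown in capitals.
mt-Atp8, last bases: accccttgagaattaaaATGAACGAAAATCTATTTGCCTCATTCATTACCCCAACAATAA
mt-Atp6, first bases: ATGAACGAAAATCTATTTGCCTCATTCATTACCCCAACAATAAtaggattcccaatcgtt
mt-Nd6, the only mRNA of the minus strand (bases 13552 to 14070), overlaps mt-Nd5 of the plus strand by 14 bases.

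Each library held 19943899 to 27731054 counts in genes. Slc39a8 was at 12.7 and 15.5 CPM (counts scaled to library size, after TMM scaling) in WT 1 and WT 2, at 8.15 and 1.88 CPM in LSKO 1 and LSKO 2, and at 1.48 to 3.18 CPM in the treated LSKO libraries, so LSKO 1 kept more Slc39a8 reads than any other LSKO library. Markers of hepatocytes summed to 19357 CPM in the lowest library and 48613 CPM in the highest, the selenite library, with 0 of 8 markers at 0. Those of the other cell types of liver summed to 468 CPM at most, in 1 list and library. The libraries carried 2 kinds of processing marks. Unaligned reads were 8.79% to 10.0% of all reads in LSKO 1, LSKO 2 and the manganese library but 4.12% to 4.94% in WT, iron, selenite and zinc. In the manganese library 72.2% of reads fell in genes and 4.48% in no feature, against 39.3% to 42.1% and 42.3% to 45.6% elsewhere. Comparisons of WT, iron, selenite or zinc with untreated LSKO cross the first mark, and every comparison with manganese crosses the second. Condition and mark cannot be told apart in those comparisons.

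Mitochondrial genes took 4.16% and 4.46% of the counts in genes in WT 1 and WT 2, 3.91% and 3.41% in LSKO 1 and LSKO 2, and 3.03%, 2.70%, 5.03% and 3.62% in the manganese, iron, selenite and zinc libraries. The selenite library was highest and the iron library lowest. The exact (Clopper-Pearson) 95% binomial intervals of the single treated libraries ran from 3.03% to 3.04%, 2.69% to 2.71%, 5.02% to 5.04% and 3.61% to 3.62% in the same order, and cover counting error only. The WT mean was 4.31% ± 0.208 and the LSKO mean 3.66% ± 0.353 (SD, n = 2 each); the groups did not overlap, and the exact two-sided permutation test gave p = 0.333, the smallest that 2 against 2 libraries allow. The order depended on the denominator for 1 library: as a share of all reads, the manganese library was highest at 2.19%, and the others lay between 1.14% and 2.09%. Fewer mitochondria and less RNA per mitochondrion cannot be told apart in these counts.

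**Figure D1:**
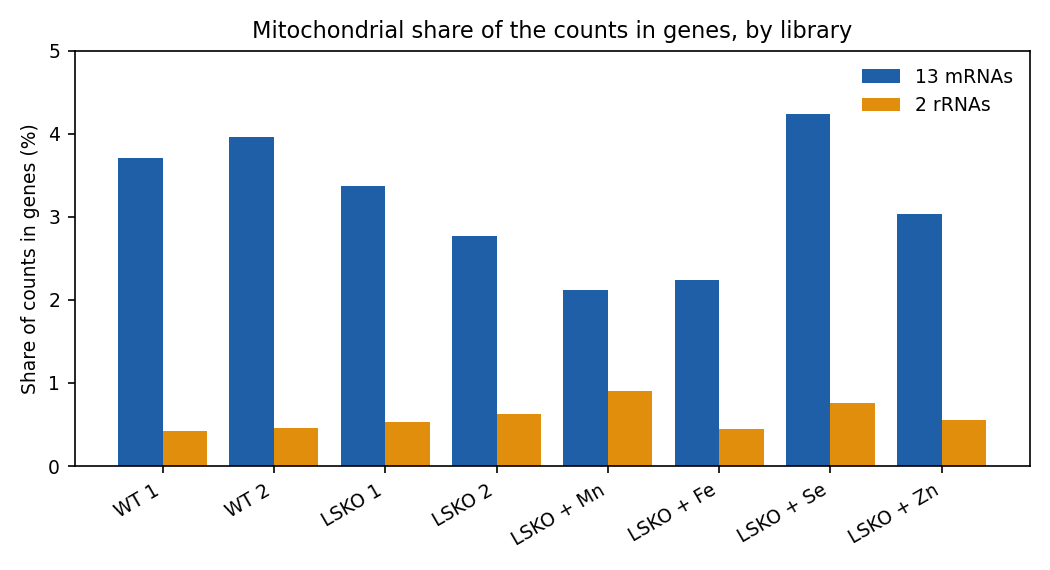
Share of the counts in genes (percent, vertical axis) taken by the 13 mitochondrial mRNAs (blue) and the 2 rRNAs (orange) in each library. The mRNA share is highest with selenite (4.23%) and lowest with manganese (2.12%) and iron (2.24%), and the rRNA share is highest with manganese (0.908%).

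The mRNAs fell into 2 sets by depth. mt-Nd1, mt-Nd2, mt-Co1, mt-Nd4, mt-Nd5, mt-Nd6 and mt-Cytb had at least 10000 counts in every library, whereas mt-Co2, mt-Atp8, mt-Atp6, mt-Co3, mt-Nd3 and mt-Nd4l had under 1000 in every library. The 6 low mRNAs together made up 0.0561% to 0.324% of the mRNA counts. Per length, mt-Co1, the catalytic subunit of cytochrome c oxidase, was the highest mRNA in all 8 libraries, at 10552 ± 309 CPM per kilobase in WT and 8925 ± 627 in LSKO (SD, n = 2 each), and it alone gave 44.4% to 54.3% of the mRNA counts. In WT, mt-Nd1 followed at 3850 ± 49.8 CPM per kilobase and mt-Nd2 at 3551 ± 189. mt-Cytb (2824 ± 116) and mt-Nd6 (2701 ± 14.5) were neighbours in this order, with 2742 and 2906 against 2711 and 2690 in the 2 WT libraries. mt-Nd4 (2563 ± 67.8) and mt-Nd5 (2562 ± 194) did not differ beyond their spread. The low set lay far beneath, from 42.3 ± 3.85 CPM per kilobase for mt-Co2 down to 2.34 ± 0.0628 for mt-Nd3.

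**Figure D2:**
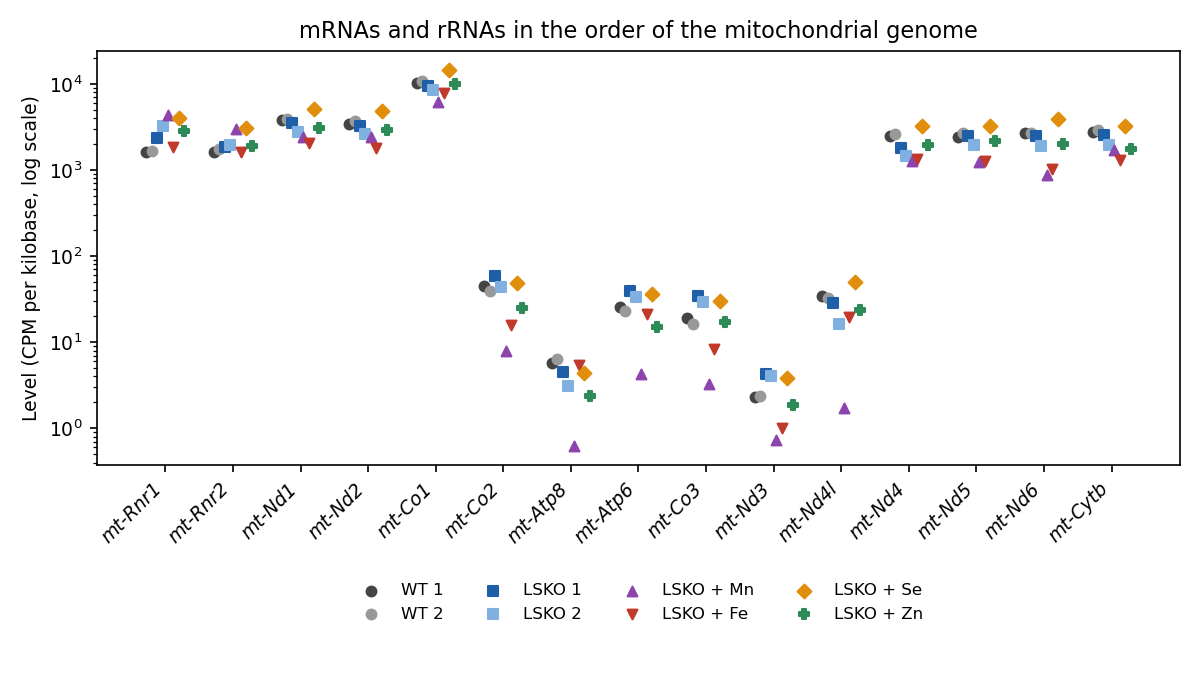
Level of each mitochondrial mRNA and rRNA (CPM per kilobase, log scale) in the 8 libraries, in the order of the genes along the chromosome. The 5 neighbours from mt-Co2 to mt-Nd3 and the adjoining mt-Nd4l reach at most 59.3 CPM per kilobase, whereas all other genes are at 888 or more.

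Annotated nuclear copies cover 5 of the 6 low mRNAs almost whole and parts of mt-Nd4 and mt-Co1. A block of pseudogenes on the minus strand of chromosome 1, from 24611535 to 24616197 in GRCm38, holds copies of 7 mitochondrial mRNAs, whole or in part, from mt-Co1 to mt-Nd4 and with no annotated copy of mt-Atp8 between them. Of the 150-base windows of mt-Co2, mt-Atp6, mt-Co3, mt-Nd3 and mt-Nd4l, 97.0% to 99.8% occur unchanged in an annotated nuclear transcript. That share was 59.2% for mt-Nd4, 23.6% for mt-Co1 and 0% for mt-Nd1, mt-Nd2, mt-Nd5, mt-Nd6, mt-Cytb and both rRNAs. mt-Atp8, the remaining low mRNA, had 0% and overlaps mt-Atp6 as shown above. The bases of chromosome 1 between the annotated copies were not searched, so whether they hold a copy of mt-Atp8 was not tested. The start of mt-Co2, with its start codon in capitals, shows such a stretch, which Gm28661 on chromosome 1 (24614885 to 24615565) carries without a difference over 681 of 684 bases.
mt-Co2, first bases: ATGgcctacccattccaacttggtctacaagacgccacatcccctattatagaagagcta
Only 1 of the 7 copies differed within its aligned part. The alignment was local and can leave out ends that differ: 483 of 492 bases of Gm29216 and 342 of 345 of Gm28438, a copy of mt-Nd3, were aligned. Over 483 aligned bases of mt-Co1 (1063 to 1545 of the transcript) the copy Gm29216 had 482 identical bases, with the substitution A1066T, counted from the first base of mt-Co1 and shown in capitals.
mt-Co1 stretch: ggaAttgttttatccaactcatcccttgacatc
Gm29216 stretch: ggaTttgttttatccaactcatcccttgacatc
A read from such a stretch has more than 1 equally good place, and 5.46% to 9.36% of reads in the files were set aside as not uniquely aligned. The copies themselves held counts, 164 to 681 for Gm28661 against 127 to 921 for mt-Co2. Values of the 5 low mRNAs with annotated copies are therefore uncertain. Those of mt-Nd4 and, to a smaller share, mt-Co1 rest in part on the stretches without an annotated copy. mt-Atp8 shares bases with mt-Atp6, and mt-Nd4l with mt-Nd4.

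Of the 37 genes, 23 had the 80 counts in sum that the test required: 13 mRNAs, 2 rRNAs and 8 tRNAs. A gene was called where the adjusted p of edgeR's quasi-likelihood test over 15468 genes was under 0.05 and the log2 fold change was beyond 0.5. In LSKO against WT, 3 mitochondrial genes were called higher and 5 lower, against 6.74% higher and 3.7% lower of all genes tested. The 7 well-counted mRNAs all had a log2 fold change under 0, from -0.64 to -0.21, and 1 of the 7, mt-Nd4, was called. mt-Nd4 was at -0.64 ± 0.10 (adjusted p = 0.00185), and at -0.72 (adjusted p = 0.00274) with the length and GC correction. Its call was lost without WT 1, without WT 2 and without LSKO 2. mt-Co1 had 15965 and 16640 CPM in WT against 14475 and 13105 in LSKO. The WT and LSKO libraries did not overlap, but at a log2 fold change of -0.24 ± 0.085 (SE, adjusted p = 0.0834) the gene was not called. mt-Nd6, a complex I subunit, had 1407 and 1396 CPM in WT against 1277 and 1000 in LSKO, a log2 fold change of -0.30 ± 0.11 (adjusted p = 0.084). The called rises among mRNAs were those of mt-Co3 (log2 fold change 0.85 ± 0.14, adjusted p = 0.00197) and mt-Atp6 (0.58 ± 0.12, adjusted p = 0.00993), both low mRNAs with nuclear copies. The counts rest on single libraries: without WT 1 there was 1 call higher and 2 lower, without WT 2 there was 1 higher and 1 lower, and without LSKO 2 there were 2 lower. mt-Atp6 lost its call without WT 1 (adjusted p = 0.0551) and without WT 2 (adjusted p = 0.0956). Corrected for length and GC content, 4 mitochondrial genes were higher and 2 lower, against 6.61% and 3.69% of all genes. Summed markers moved with this comparison: hepatocyte markers were at 20385 and 19357 CPM in WT against 28053 and 35703 in LSKO, those of sinusoidal endothelium at 196 and 204 against 162 and 129, and those of cholangiocytes at 83.5 and 88.1 against 65.9 and 49.3. Those of Kupffer cells were higher in LSKO, at 206 and 188 CPM in WT against 244 and 277. The part of these markers in the result was not tested.

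In the iron library 9 of the 13 mitochondrial mRNAs were called lower than in untreated LSKO, and mt-Co1, mt-Nd4, mt-Nd4l and mt-Atp8 were not called. Over all mitochondrial genes 11 were called lower and 1, mt-Ts1, higher, where 4.89% of all genes were called lower and 3.8% higher. Among the 7 well-counted mRNAs 5 were called lower, and the median over all 13 was -0.78 on the log2 scale, against -0.00341 over all genes tested. mt-Nd6 was at 534 CPM with iron, under the 1277 and 1000 CPM of the untreated libraries. That was 2.13-fold lower, with a log2 fold change of -1.09 ± 0.14 (adjusted p = 7.3e-04). mt-Co1 was at 12090 CPM against 14475 and 13105 and was not called (-0.19 ± 0.10, adjusted p = 0.263), so that its share of the mRNA counts, 54.3%, was higher than in any other library (44.4% to 49.6%). The largest falls were in the low set: mt-Nd3 (-2.04 ± 0.58, adjusted p = 0.0458), mt-Co3 (-1.92 ± 0.19, adjusted p = 1.7e-04) and mt-Co2 (-1.69 ± 0.20, adjusted p = 4.9e-04). mt-Nd3 had 6 to 38 counts per library and lost its call when any single WT or LSKO library was left out (-2.10 to -2.01, adjusted p 0.0513 to 0.0924). Corrected for the length and GC content of transcripts, 1 gene was higher and 7 were lower (3.66% and 5.18% of all genes), and the median of the 13 mRNAs was -0.62. Summed markers of stellate cells and fibroblasts (17.5 CPM), of cholangiocytes (25.9 CPM) and of sinusoidal endothelium (84.3 CPM) were lowest in the iron library, against 33.9 to 42.8, 42.9 to 88.1 and 105 to 204 CPM elsewhere. Those of Kupffer cells went the other way, at 320 CPM with iron against 244 and 277 in untreated LSKO. The part of these markers in this result was not tested.

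In the selenite library 15 of the 23 tested mitochondrial genes were called higher than in untreated LSKO and 0 lower, of which 1, mt-Ts1, kept its call once length and GC content were allowed for. Of all genes tested, 7.89% were called higher and 9.67% lower. Among the mitochondrial genes edgeR gave 0 lower with a raw p under 0.05, and DESeq2 called 10 higher and 0 lower. All 7 well-counted mRNAs were called higher, with log2 fold changes of 0.54 to 0.99, whereas mt-Co2 (-0.091), mt-Atp6 (-0.0037), mt-Co3 (-0.082) and mt-Nd3 (-0.12) of the low set were not called. The summed level of the 7 well-counted mRNAs was 48769 CPM, above the 32368 and 27315 CPM of untreated LSKO and the 35596 and 37425 CPM of WT. mt-Co1 was at 22723 CPM, 1.65-fold higher than in untreated LSKO (0.72 ± 0.10, adjusted p = 9.2e-04), and mt-Nd6 at 2016 CPM, 1.77-fold higher (0.82 ± 0.13, adjusted p = 0.00141). mt-Nd4l had the largest called difference among the mRNAs (1.18 ± 0.27, adjusted p = 0.0102), from 8.46 and 4.86 CPM to 14.9 CPM. Mitochondrial mRNAs are short and poor in G and C: their median GC content was 37.1%, and only 1.49% of all genes tested had less, against a median of 49.4%. With a correction for length and GC content, the median of the 13 mRNAs went from 0.55 to -0.17, 0 of the 7 well-counted mRNAs were called, and mt-Ts1 alone was higher (3.31, adjusted p = 1.1e-06) and 6 mitochondrial genes were lower (3.98% and 4.99% of all genes). mt-Co1 was then at 0.10 (adjusted p = 0.58) and mt-Nd6 at -0.17 (adjusted p = 0.484). In this library the TMM factor was 0.867, the lowest of the 8 (the others 0.969 to 1.06). Summed hepatocyte markers were at 48613 CPM with selenite against 28053 and 35703 in untreated LSKO. Among the other cell types only markers of sinusoidal endothelium were lower than in both untreated libraries, at 113 CPM against 162 and 129. The part of these markers in the selenite result was not tested.

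**Figure D3:**
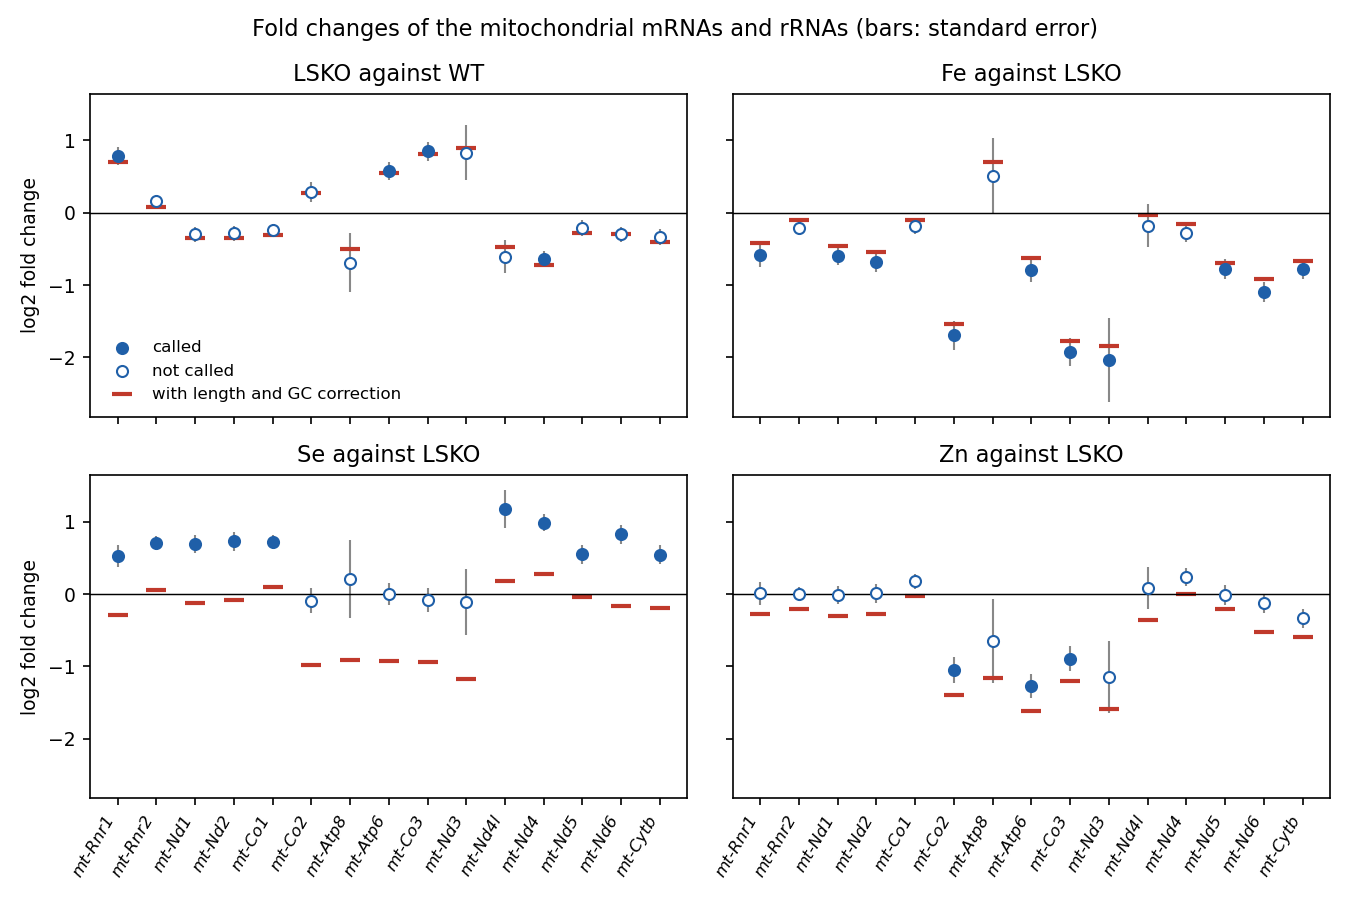
log2 fold change (vertical axis) of the 13 mRNAs and 2 rRNAs in 4 comparisons, with bars of 1 standard error; filled circles were called, open circles were not, and red dashes give the value with the length and GC correction. The dashes lie close to the circles for LSKO and iron, and below them for every gene with selenite.

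In the zinc library 1 mitochondrial gene, mt-Ts1, was called higher than in untreated LSKO and 3 lower, where 2.9% of all genes were called higher and 1.55% lower. Among the 7 well-counted mRNAs 0 were called by edgeR or DESeq2, with log2 fold changes from -0.34 to 0.23, and 1 had a raw p under 0.05. mt-Co1 was at 15563 CPM (0.17 ± 0.10, adjusted p = 0.4) and mt-Nd6 at 1040 CPM (-0.13 ± 0.13, adjusted p = 0.638). The genes called lower were mt-Atp6 (-1.27 ± 0.16, adjusted p = 9.4e-04), mt-Co2 (-1.05 ± 0.18, adjusted p = 0.00706) and mt-Co3 (-0.89 ± 0.17, adjusted p = 0.0129), all of the low set. Corrected in the same way, 1 gene was higher and 6 were lower (2.37% and 1.65% of all genes), and without LSKO 2 there were 5 lower in the uncorrected fit.

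Selenite and the other treatments were also set against each other, which keeps within 1 set of processing marks. Selenite against the mean of iron and zinc gave 18 mitochondrial genes higher and 0 lower, where 7.53% of all genes were called higher and 8.35% lower. With a raw p under 0.05 edgeR gave 20 higher and 0 lower, and DESeq2 called 15 and 0. mt-Nd6 differed by 1.44 ± 0.12 (adjusted p = 5.1e-04), mt-Co3 by 1.32 ± 0.17 (adjusted p = 0.00116), mt-Co2 by 1.28 ± 0.18 (adjusted p = 0.00148) and mt-Co1 by 0.73 ± 0.10 (adjusted p = 0.00149). Once corrected, 1 gene was higher and 0 lower (3.6% and 3.48% of all genes), mt-Nd6 at 0.55 (adjusted p = 0.0392), and the median of the 13 mRNAs went from 1.06 to 0.38. Iron, selenite and zinc together against WT, also within that set, gave 2 mitochondrial genes higher and 4 lower, where 7.12% and 6.93% of all genes were called. There mt-Co1 was at -0.0064 ± 0.077 (adjusted p = 0.959) and mt-Nd6 at -0.43 ± 0.095 (adjusted p = 0.00811, under the fold threshold). These are means of treatments that lay on both sides of WT. mt-Co1 was at 12090, 22723 and 15563 CPM with iron, selenite and zinc, against 15965 and 16640 in WT. mt-Nd6 was at 534, 2016 and 1040 CPM, against 1407 and 1396. The standard errors of this comparison hold none of the spread between the treatments. Its treated libraries are all LSKO and WT was untreated, so knockout and treatment cannot be told apart in it. mt-Co2 was lower (-0.66 ± 0.13, adjusted p = 0.00515), a call lost without WT 1 (adjusted p = 0.0774) and without WT 2 (adjusted p = 0.0506). Once corrected, 0 were higher and 10 lower (6.19% and 6.5% of all genes), 6 of them well-counted mRNAs. Without WT 2 there were 0 calls higher and 2 lower, and without WT 1 there was 1 higher.

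The manganese library was set against untreated LSKO with the difference in read assignment in view. It showed 2 mitochondrial genes higher and 17 lower, where 2.09% of all genes were called higher and 15.1% lower. Of the 2330 genes called lower, 94.7% overlap a gene of the opposite strand, against 47.9% of all genes tested. mt-Nd6 was at 461 CPM against 1277 and 1000 (-1.30 ± 0.14, adjusted p = 2.8e-05), and mt-Co1 at 9550 CPM against 14475 and 13105 (-0.53 ± 0.11, adjusted p = 0.00373). Without LSKO 1 mt-Co1 was not called (-0.46). All 6 low mRNAs were called lower, with log2 fold changes from -3.69 to -2.48, on 3 (mt-Atp8) to 127 (mt-Co2) counts in the manganese library. Corrected for length and GC content, 3 mitochondrial genes were higher and 13 lower, where 681 and 2244 of the 15468 genes tested were. Of the 6 low mRNAs 4 then kept their call, and the log2 fold changes of all 6 ran from -3.08 to -0.89. mt-Atp8 and mt-Nd3, with 3 and 6 counts with manganese, lost theirs. mt-Nd6 gave 20.2 counts per 100 counts of mt-Nd5 with manganese, 22.7 with iron, and 25.9 to 34.1 in the other 6 libraries.

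With manganese both rRNAs were called higher and 9 of the 13 mRNAs lower. In iron, selenite and zinc together against WT 1 rRNA, mt-Rnr1, was called higher and 2 mRNAs lower. In LSKO against WT mt-Rnr1 was called higher, 1 mRNA lower and 2 mRNAs higher. mt-Rnr1 (chromosome M, bases 70 to 1024) was at 1530 and 1587 CPM in WT, 2246 and 3122 in LSKO, and 4168, 1787, 3877 and 2705 with manganese, iron, selenite and zinc. Every LSKO library lay above both WT libraries. In untreated LSKO the gene was 1.72-fold higher than in WT (0.78 ± 0.13, adjusted p = 0.00226), and in iron, selenite and zinc together 1.70-fold higher (0.77 ± 0.12, adjusted p = 0.00128). The first call was lost without WT 1 (adjusted p = 0.0848) and without WT 2 (adjusted p = 0.0701), and the second without WT 2 (adjusted p = 0.0571) and after correction for GC content and length (0.38, adjusted p = 0.0294, under the fold threshold). mt-Rnr1 was called lower with iron (-0.59 ± 0.16, adjusted p = 0.0381) and higher with selenite (0.53 ± 0.15, adjusted p = 0.0279), in the direction of the called mRNAs. Both calls were lost with the length and GC correction (-0.43 and -0.29), with DESeq2 (adjusted p = 0.278 and 0.266), without WT 1 (adjusted p = 0.111 and 0.109) and without WT 2 (adjusted p = 0.108 and 0.106), the one with iron also without LSKO 2 (-0.34) and the one with selenite without LSKO 1 (0.26). mt-Rnr2 (bases 1094 to 2675) was at 2570 and 2767 CPM in WT, 2896 and 3100 in LSKO, and 4745, 2589, 4900 and 2997 in the same treatments. It was not called in LSKO against WT (0.17 ± 0.080, adjusted p = 0.2), with iron (-0.21 ± 0.099, adjusted p = 0.194), with zinc (log2 fold change -0.00024 ± 0.099, adjusted p = 0.999) or in the 3 treatments together against WT (0.33 ± 0.074, adjusted p = 0.00843, under the fold threshold). It was higher with selenite (0.71 ± 0.096, adjusted p = 7.9e-04), in selenite against the mean of iron and zinc (0.81 ± 0.096, adjusted p = 9.2e-04), and with manganese (0.66 ± 0.096, adjusted p = 3.7e-04). Both selenite calls were lost with the length and GC correction (0.051 and 0.20). mt-Rnr1 was also higher with manganese (0.63 ± 0.15, adjusted p = 0.0119), a call lost without WT 1 (adjusted p = 0.0672), without WT 2 (adjusted p = 0.0647) and without LSKO 1 (0.42).

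Ratios within a library do not depend on the scaling between libraries. Per length, mt-Rnr1 relative to mt-Rnr2 was 0.986 and 0.950 in WT, 1.29 and 1.67 in LSKO, and 1.46, 1.14, 1.31 and 1.49 with manganese, iron, selenite and zinc. The 13 mRNAs gave 8.70 and 8.61 counts per rRNA count in WT, 6.32 and 4.40 in LSKO, and 2.34, 5.09, 5.57 and 5.50 in the same treatments. For both ratios the 6 LSKO libraries, treated or not, did not overlap the 2 WT libraries. The manganese library, lowest in mRNA counts per rRNA count, carries the second processing mark. Summed hepatocyte markers separated the libraries in the same way, at 20385 and 19357 CPM in WT against 28053 to 48613 in LSKO. Their part in the ratios was not tested. The grouping of the ratios was chosen after its values were seen and was not tested.

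**Figure D4:**
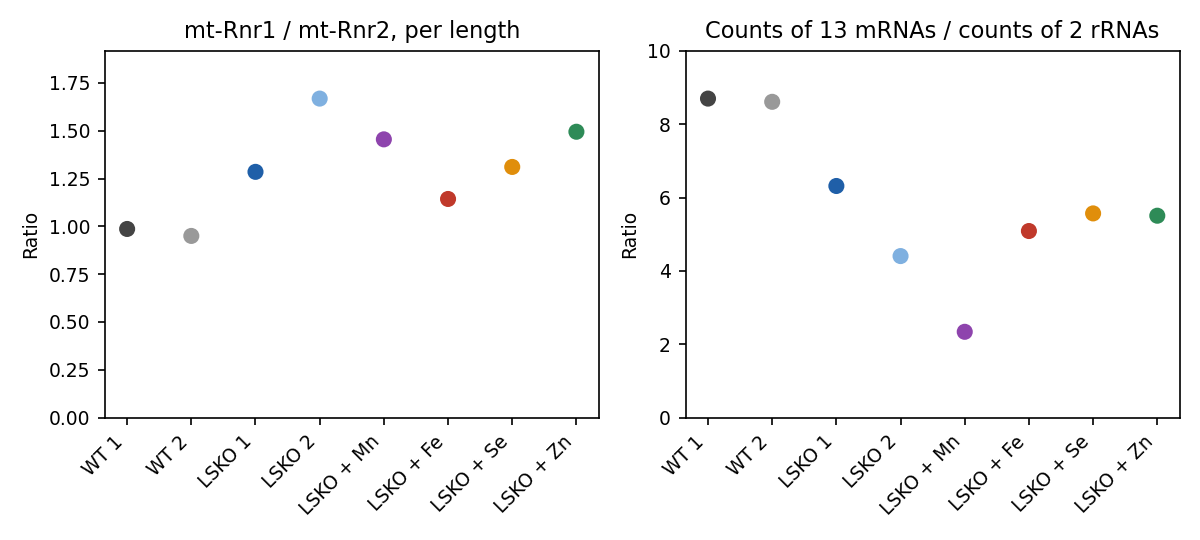
Left, mt-Rnr1 relative to mt-Rnr2 per length; right, counts of the 13 mRNAs per count of the 2 rRNAs, in each library. The WT libraries lie lowest on the left (0.950 and 0.986) and highest on the right (8.61 and 8.70).

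Few reads fell in the tRNAs, which are 59 to 75 bases long and shorter than a 150-base read. They took 0.00175% to 0.0366% of the counts in genes. Of the 22 tRNAs, 8 were at 0 in all libraries, all of the plus strand, and 8 were tested, 6 of the 8 on the minus strand and 2 of the 14 on the plus strand. The minus-strand tRNAs held 93.8% to 100% of all tRNA counts. Their neighbours on the plus strand include the abundant mRNAs: mt-Ts1 abuts mt-Co1, and mt-Tp lies beyond mt-Cytb and mt-Tt. A fragment that spans a junction is not told apart from the tRNA itself in these counts.

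mt-Ts1 varied most. It was at 149 and 189 CPM in WT, 14.3 and 12.7 in LSKO, 115 with iron, 291 with selenite, 165 with zinc and 0 with manganese. Untreated LSKO was 12.6-fold lower than WT (log2 fold change -3.65 ± 0.13, adjusted p = 3.3e-08), and iron (3.09 ± 0.14, adjusted p = 4.1e-07), selenite (4.44 ± 0.14, adjusted p = 1.2e-08) and zinc (3.62 ± 0.14, adjusted p = 7.2e-08) were higher than untreated LSKO. Its counts per 1000 counts of mt-Co1 were 9.34 and 11.4 in WT and 9.48, 12.8 and 10.6 with iron, selenite and zinc, but 0.986 and 0.966 in untreated LSKO and 0 with manganese. The low and the high libraries are the same as those with many and with few unaligned reads, in which reads of low alignment quality also numbered 0 to 62 and 592678 to 680199. Knockout hepatocytes were thus on both sides, and the part of the processing was not tested. mt-Ts1 lies between mt-Co1 and mt-Co2, whose annotated copies are neighbours in the block on chromosome 1. The bases between those copies were not searched, so the part of a nuclear copy of mt-Ts1 was not tested either.

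**Figure D5:**
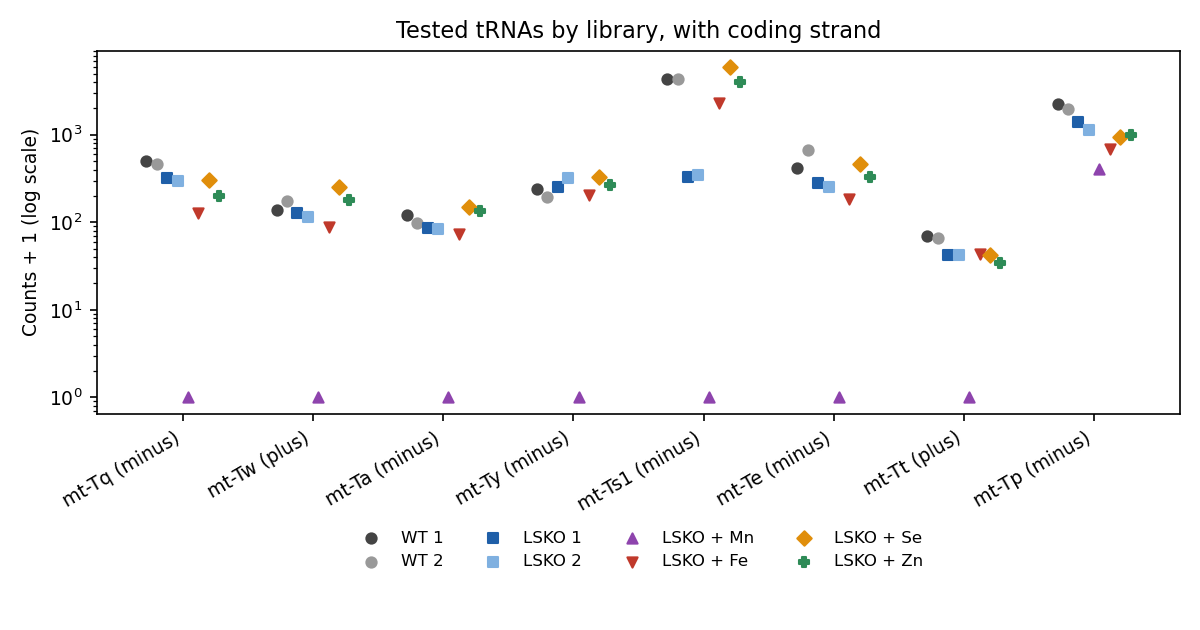
Counts plus 1 (log scale) of the 8 tested tRNAs in each library, with the strand that encodes each. The manganese library has 0 counts in 7 of the 8, and mt-Ts1 has 324 and 344 counts in untreated LSKO but 2300 to 5893 in WT, iron, selenite and zinc.

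The other tRNAs changed less. In LSKO against WT mt-Te (-1.003 ± 0.27, adjusted p = 0.0311), mt-Tp (-0.67 ± 0.15, adjusted p = 0.0121) and mt-Tq (-0.56 ± 0.16, adjusted p = 0.0373) were lower. mt-Te, whose 2 WT libraries were at 14.4 and 28.8 CPM, lost its call without WT 2 (-0.41), and mt-Tp without WT 1 (-0.71, adjusted p = 0.108), WT 2 (-0.58, adjusted p = 0.158) or LSKO 2 (-0.40). mt-Tq lost its call without WT 1, without WT 2 and without LSKO 2. The length and GC correction took away the calls of mt-Te (-0.53, adjusted p = 0.253), mt-Tp (-0.16, adjusted p = 0.499) and mt-Tq (-0.079, adjusted p = 0.779). In iron, selenite and zinc together against WT mt-Tp (-1.01 ± 0.13, adjusted p = 5.1e-04) and mt-Tq (-1.01 ± 0.15, adjusted p = 8.6e-04) were lower and mt-Ty was higher (0.52 ± 0.13, adjusted p = 0.0152), the last lost without WT 1 (adjusted p = 0.0762), without WT 2 (adjusted p = 0.0906) and with the correction (0.45, under the fold threshold). mt-Tw, which follows mt-Nd2, was higher with selenite (1.35 ± 0.28, adjusted p = 0.00671), but not with the correction (0.27, adjusted p = 0.593). With manganese 7 of the 8 tested tRNAs had 0 counts. Against a floor of 3 counts in that library, mt-Ts1 was at least 106-fold lower, mt-Tq at least 99.0-fold and mt-Ty at least 90.6-fold lower than the mean of untreated LSKO. mt-Tp still had 405 counts and was called lower with manganese (-1.57 ± 0.21, adjusted p = 1.6e-04). With the length and GC correction its call reversed to higher (1.72, adjusted p = 7.6e-05). All these manganese values cross the second processing mark described above.

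Nuclear genes that serve the mitochondrial genome were called in small numbers, and the shares of all genes called stand above for each comparison. Of 9 transcription genes, 1 was lower in LSKO against WT, Tfb2m, the promoter-melting factor (-0.51 ± 0.11, adjusted p = 0.0117), from 51.9 and 52.4 CPM to 41.0 and 32.3. With iron 2 of the 9 were higher, Polrmt, the polymerase itself (0.54 ± 0.13, adjusted p = 0.0207), and Tfb2m (0.51 ± 0.14, adjusted p = 0.0359), where 3.8% of all genes were. DESeq2 called 0 of the 9 higher there, with 2 at a raw p under 0.05 in edgeR, and Polrmt lost its call with the length and GC correction (0.38, under the fold threshold). With selenite 1 was lower, Polrmt (-0.95 ± 0.14, adjusted p = 0.0013), at 13.3 CPM against 25.9 and 25.7 in untreated LSKO, and the correction for length and GC content took its call away (-0.37, adjusted p = 0.07). Of 21 tested genes of RNA processing and stability, 0 were called with iron and zinc and in LSKO against WT, and 1 with selenite, Fastkd5, which acts on mitochondrial transcripts (0.52 ± 0.17, adjusted p = 0.0491; corrected 0.31, adjusted p = 0.237), where 7.89% of all genes were higher and 9.67% lower. Of 20 RNA modification genes 0 were called in these 4 comparisons. DESeq2 also called 0 of both lists in the 4 comparisons, and with a raw p under 0.05 edgeR found at most 9 of the 21 higher and 4 lower, both with selenite, and at most 5 of the 20 higher, with selenite, and 3 lower, with zinc. In the same 4 comparisons 1 of 13 genes of DNA replication and upkeep was called, Polg2, the accessory subunit of the DNA polymerase. It was lower with selenite (-0.86 ± 0.27, adjusted p = 0.04), from a mean of 5.50 CPM to 3.01, and DESeq2 called 0 of the 13. Of 9 regulators of biogenesis 1 was called, Pprc1, a coactivator (-0.83 ± 0.17, adjusted p = 0.00538), also lower with selenite. The correction took the call of Pprc1 away (-0.35, adjusted p = 0.112). In iron, selenite and zinc together against WT Endog was higher (0.65 ± 0.11, adjusted p = 0.00213) and Polg2 lower (-0.69 ± 0.19, adjusted p = 0.0213). With manganese, where 15.1% of all genes were lower, Slirp and Ptcd1 of RNA processing, Rpusd3 of RNA modification, and Mgme1, Twnk and Endog of replication and upkeep were lower. Slirp had 5 counts there against 1729 and 2068 in untreated LSKO, and Slirp, Ptcd1, Rpusd3, Mgme1 and Twnk each overlap a gene of the opposite strand.

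Nuclear subunits of complexes I, IV and V were among the genes called lower with iron (4.89% of all genes), and those of all 4 complexes among the genes called higher with selenite (7.89% of all genes). With iron 8 of 37 complex I, 0 of 9 complex III, 3 of 11 complex IV and 5 of 17 complex V subunits were lower and 0 higher by edgeR (27, 4, 11 and 13 lower and 0 higher with a raw p under 0.05; 4, 0, 3 and 6 lower and 0 higher by DESeq2), with medians of -0.34, -0.18, -0.32 and -0.32. Cox6c of complex IV went from a mean of 127 CPM to 85.8 (-0.57 ± 0.095, adjusted p = 0.00397) and Atp5k of complex V from 30.2 to 17.2 (-0.81 ± 0.12, adjusted p = 0.00242). With selenite 15 of 37, 4 of 9, 8 of 11 and 7 of 17 were higher and 0 lower by edgeR (31, 7, 11 and 14 higher and 0 lower with a raw p under 0.05; 13, 4, 8 and 7 higher and 0 lower by DESeq2), with medians of 0.44, 0.41, 0.59 and 0.49. Ndufb4 of complex I rose from 37.9 to 75.9 CPM (1.00 ± 0.10, adjusted p = 1.2e-04), and Uqcrb of complex III from 81.5 to 165 CPM (1.02 ± 0.089, adjusted p = 4.2e-05). The correction for length and GC content left 4, 0, 0 and 1 of these higher with selenite and 3, 0, 1 and 4 lower with iron. Under it Ndufb4 stayed called (0.62, adjusted p = 0.00255) and Uqcrb did not (0.12, adjusted p = 0.368). In LSKO against WT 2 of 37 complex I subunits were higher, Ndufc2 (0.54 ± 0.089, adjusted p = 0.00251) and Ndufa6 (0.50 ± 0.090, adjusted p = 0.00405; corrected 0.42, under the fold threshold), where 6.74% of all genes were and DESeq2 called 1, and 0 of the 37 subunits of complexes III, IV and V were called by edgeR or DESeq2 (8 higher and 1 lower with a raw p under 0.05).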

How the data were processed

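The deposited files held counts of reads per gene, 1 file per library; per the labels and the study's methods the authors trimmed reads with Trimmomatic, aligned them to GRCm38 with HISAT2 and counted them with HTSeq. The strand setting of the counting is not given in the sources used here. Rows of unassigned reads (no feature, ambiguous, low quality, not aligned, not unique) were kept out of library sizes, which left 39.3% to 72.2% of reads. All 55450 gene identifiers matched GENCODE M21.

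Counts of all 8 libraries in 6 groups were fitted with edgeR 4.0.16 in R 4.3.3 (TMM, quasi-likelihood F-test, Benjamini-Hochberg adjustment), for genes with at least 80 counts in sum; 2 residual degrees of freedom were left. Standard errors were taken as the log2 fold change over √F. The length and GC correction entered as offsets, from splines with 4 degrees of freedom. DESeq2 1.42.0 was an alternative. Scripts were tested on simulated data. Replicates differed by more than counting noise (chi-square per degree of freedom 6.07 for WT and 13.7 for LSKO).

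Members and lists were chosen with earlier results of these data known. Named genes were mt-Nd6, mt-Rnr2, mt-Co1 and, in each comparison, up to 3 called genes with the largest rise and up to 3 with the largest fall. Of each nuclear list, up to 2 called genes were named. Some further genes were named outside this rule, among them mt-Rnr1, mt-Nd4, mt-Tp and mt-Tq. Comparisons with untreated LSKO share its 2 libraries.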

Additional observations from a re-analysis of the deposited data

How the results depend on the processing

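Scaling on the sum of the 13 mRNAs, which sets their total equal by construction, gave 5 mitochondrial genes higher and 2 lower in LSKO against WT (median of the 13 mRNAs 0.0039; mt-Co1 0.052), 3 lower with iron (median -0.35; mt-Rnr2 0.20, mt-Co1 0.23), 2 higher and 4 lower with selenite (median -0.15; mt-Rnr2 -0.013), 2 lower in iron, selenite and zinc together against WT (mt-Co1 0.17), 1 higher and 1 lower in selenite against iron and zinc (median 0.18; mt-Rnr2 -0.072, mt-Co1 -0.16), and a median of -0.78 with manganese. The length and GC correction gave 2 lower in LSKO, 7 lower with iron, 1 higher and 6 lower with selenite (median -0.17; mt-Nd6 -0.17), 6 lower with zinc (median -0.52; mt-Co1 -0.026), 0 higher and 10 lower in the 3 treatments against WT (median -0.65; mt-Rnr2 -0.0069), 1 higher in selenite against iron and zinc (median 0.38), and a median of -0.89 with manganese. For tRNAs, shorter than nearly all genes tested, this correction rests on few genes. DESeq2 gave 3 lower in LSKO, 1 higher with manganese and 1 higher in the 3 treatments against WT, where no filter also gave 1. mt-Rnr2 with zinc, close to 0, was 0.0021 with median-ratio size factors and with DESeq2, 0.0097 with no filter and 0.0048 with filterByExpr.

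With each WT or LSKO library left out in turn, the calls ranged from 1 to 4 higher and 1 to 6 lower in LSKO against WT, 1 to 2 higher with manganese (median -1.46 to -1.12), 3 to 5 lower with zinc (median -0.28 to 0.052), and 0 to 2 higher and 2 to 5 lower in the 3 treatments against WT. The selenite median ranged from 0.36 to 0.69. mt-Rnr2 with zinc ranged from -0.053 to 0.060, mt-Nd6 with zinc from -0.28 to 0.052, and mt-Co1 in the 3 treatments against WT from -0.031 to 0.021. Without the manganese library no value changed direction.

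Replicate numbers of WT and LSKO did not pair the libraries (correlation of their deviations -0.071 over 15468 genes, with 2 pairs). With the replicate block, 3 mitochondrial genes were higher and 6 lower in LSKO against WT.

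As a share of all reads, mitochondrial genes took 1.74% and 1.84% in WT, 1.54% and 1.34% in LSKO, and 2.19%, 1.14%, 2.09% and 1.51% with manganese, iron, selenite and zinc. The 13 mRNAs alone took 3.71% and 3.96%, 3.37% and 2.78%, and 2.12%, 2.24%, 4.23% and 3.04% of the counts in genes, in the same order. Of the values of single named genes under the alternatives, 519 kept their direction and their side of the threshold, 50 lost the call, 2 gained it and 19 changed direction. Among the lost calls were mt-Atp6 and mt-Te in LSKO, mt-Rnr1 with manganese, mt-Nd3 with iron and mt-Ty in the 3 treatments against WT under DESeq2. The cause was not tested. Depth limits the 6 low mRNAs and the tRNAs.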
